A study of Anopheles gambiae with 104 samples.

Results

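The 91 transcripts described here, each represented by an array probe set, rose at night in the bodies of the malaria mosquito Anopheles gambiae without meeting the same rhythm rule in heads. They were chosen from the light:dark (LD) arms by a fitted 24 h curve (a cosinor) through the 13 time-point means of each arm. A probe set counted as strong in an arm with an amplitude of at least 0.5 on the log2 scale, an R2 of at least 0.7 and a mean level of at least 4. Members were strong in bodies in LD, not strong in heads in LD, and had a fitted peak in bodies from zeitgeber time (ZT) 14 to under 22, ZT12 being lights off. They are 91 of the 16884 Anopheles probe sets on the array, of the 380 strong in bodies in LD (2.25%) and of the 265 strong in bodies but not in heads. The other 174 of those 265 peaked at other hours, and 34 probe sets with the same peak window were strong in both tissues.

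The series followed RNA on Affymetrix arrays in mated, non-blood-fed females of the Pimperena strain (S form), 7 to 9 days old at the start, over 48 h at 4 h steps. There were 4 arms: heads, with mouthparts and antennae, and bodies, with appendages, each in LD (full light for 11 h, with dawn and dusk ramps of 1 h each) and in constant dark (DD). Each arm held 13 time points with 2 arrays, and 20 to 30 mosquitoes were pooled per time point. Collection in LD covered ZT12 to ZT60. In DD, where hours are circadian times (CT) with subjective dawn at CT0, it covered CT0 to CT48. LD and DD were separate collections, so the light regime and the collection cannot be told apart. A pool of whole bodies mixes tissues, so more cells of a type and more RNA per cell cannot be told apart.

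In insects, daily rhythms of transcripts are kept by a feedback loop of clock proteins that runs in the brain and also in peripheral organs. A rhythm that continues in constant dark is called circadian, while one seen only in a light:dark cycle can also follow light directly. Anopheles gambiae females fly, feed on sugar and seek blood at night, and the body pools hold the gut, fat body, Malpighian tubules, ovaries, flight muscle and legs. The files used here do not link these probe sets to genes, so members are given by probe set ID. No function is assigned to any of them, and the 2 tissues could not be checked against marker genes.

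Under LD the bodies held more of these transcripts from dusk to the end of the night and less through the day. Averaged by hour of day, 21 members were highest at ZT12, 26 at ZT16, 20 at ZT20 and 24 at ZT0, and 0 at ZT4 or ZT8. The lowest hour was ZT8 for 48 members, ZT4 for 33, ZT12 for 8 and ZT0 for 2. Their median deviation from the arm mean was 0.83 on the log2 scale at ZT16 and 0.72 at ZT20, fell to -0.79 at ZT28 and -0.91 at ZT32, and repeated with 0.66 at ZT40, 0.71 at ZT44, -0.78 at ZT52 and -0.98 at ZT56. All of these values come from the arm that chose the members, so they carry no test.

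**Figure D1:**
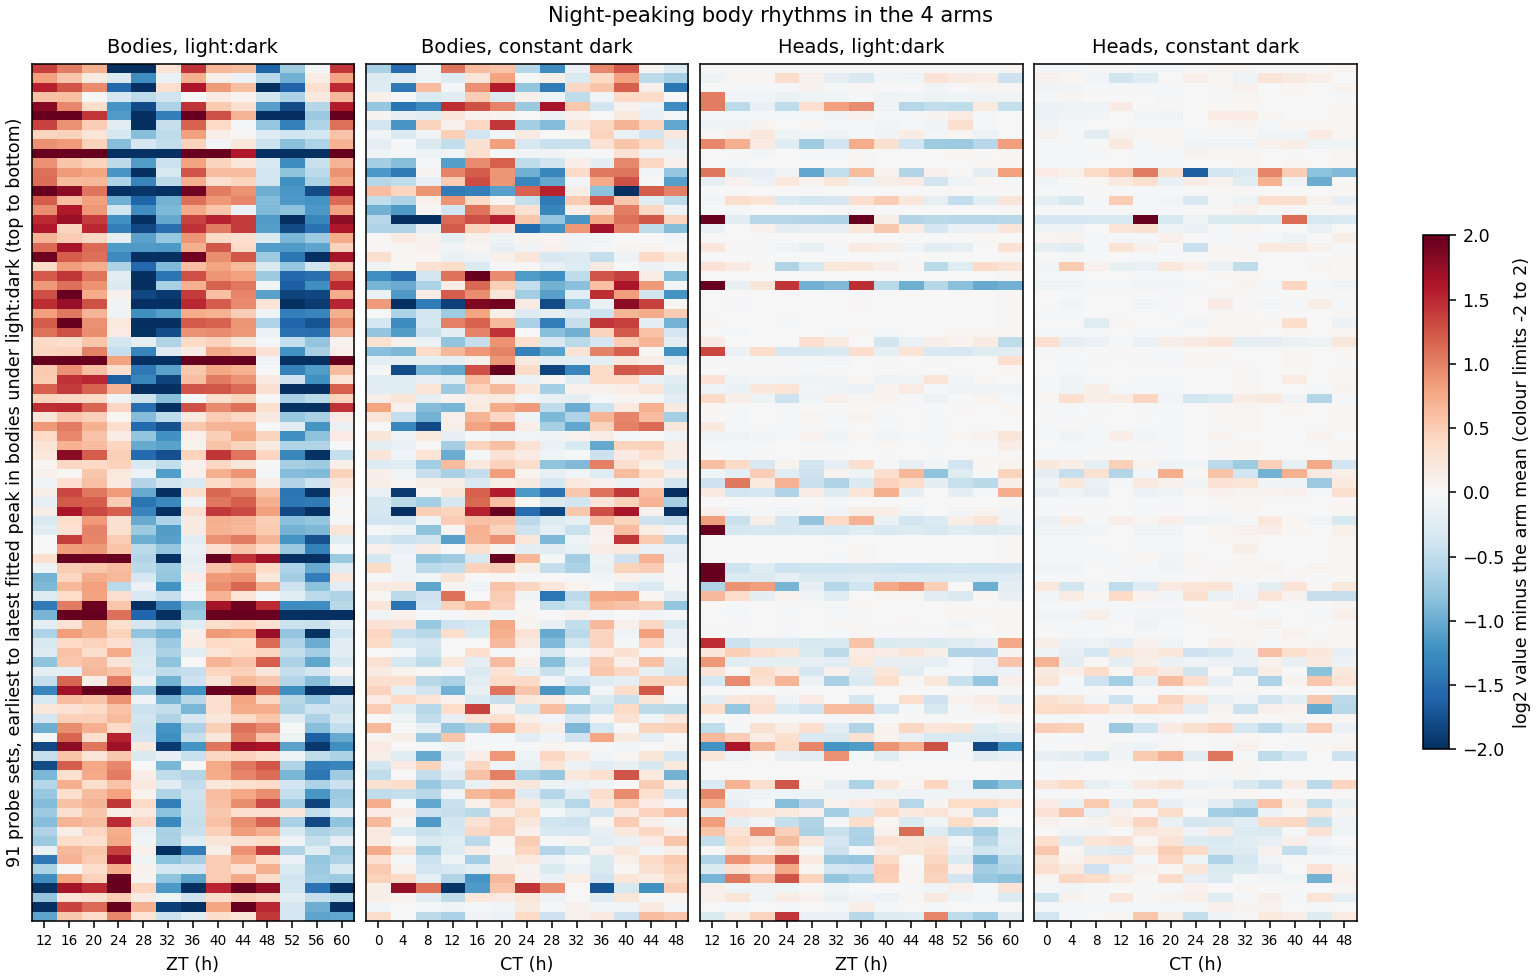
Log2 value minus the arm mean (colour, limited to -2 to 2) of the 91 probe sets (rows, ordered by fitted peak in bodies in LD) at the 13 time points (columns, hours) of each arm. Both nights are red in bodies in LD, the pattern is paler in bodies in DD (median amplitude 0.475 against 1.10), and most rows are near white in heads.

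The fitted LD amplitude ran from 0.51 to 4.61 with a median of 1.10, which is a median fitted peak over trough of 4.61-fold. It was at least 1 in 51 members and at least 2 in 16. Mean levels in bodies in LD ran from 4.28 to 13.98 (median 8.60), and R2 from 0.70 to 0.96 (median 0.82). The SD between the 2 arrays of a time point, as the median over members, was 0.118 at the median time point but 0.477 at ZT52, where the low daytime values of the second cycle are therefore less certain. Of the members, 40 peaked before ZT18, with a median amplitude of 1.42, and 51 from ZT18 on, with 0.93.

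The values nearest the limits of the rule lay close together. The lowest amplitude inside was 0.51 and the highest outside 0.49, the corresponding R2 values were 0.704 and 0.699, and the mean levels 4.28 and 3.83. The earliest peak inside was at ZT14.05, with the nearest outside at 13.80, and the latest inside at ZT21.98, with the nearest outside at 22.11.

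The largest swings in LD were close to on and off. Ag.3R.29.0_CDS_at measured 11.03 ± 0.23 (SD, n = 3 time points) at ZT12, 9.76 ± 0.64 (n = 2) at ZT16 and 8.94 ± 0.53 (n = 2) at ZT20, then 3.21 ± 0.21, 3.06 ± 0.31 and 3.70 ± 0.48 (n = 2 each) at ZT0, ZT4 and ZT8. Its highest level thus stood at lights off and fell through the night, and all its daytime values lay near the background cutoff of 3.78 on the log2 scale, the level that 95% of the Plasmodium falciparum probe sets on the array stay under in bodies. Ag.3R.20.0_CDS_at measured 12.98 ± 0.36 (n = 3) at ZT12, 13.22 ± 0.24 at ZT16, 12.75 ± 0.29 at ZT20, 10.69 ± 0.61 at ZT0, 5.85 ± 0.57 at ZT4 and 5.14 ± 0.62 at ZT8 (n = 2 each). This probe set was high at all dark hours and still high at dawn. Fitted peak over trough was 594-fold and 471-fold for the pair. These folds are those of the fitted curve, which swung wider than the means by hour of day given above. The first of them also depends on trough values close to background.

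In constant dark, which the rule did not use, part of the bodies' night pattern was still measured. A limma F-test of the 24 h curve, with Benjamini-Hochberg adjustment over all 7325 probe sets above the background cutoff, called 41 of the 89 members tested rhythmic at an adjusted p under 0.05, against 6.69% of all probe sets tested. The remaining 2 of the 91 fell under the cutoff. Of the body-only rhythms with other peak hours 56 of 171 were called (32.7%), and of the rhythms strong in both tissues at night 24 of 34 (70.6%). By the rule that chose the members in LD, 25 of the 91 were strong in bodies in DD, against 0.936% of all Anopheles probe sets. That share is over all 16884, of which only 7325 were above the background cutoff in bodies. It was 20.7% of the other body-only rhythms and 52.9% of the night rhythms of both tissues. Whether both arrays of an hour hold RNA of different pools is not stated, and these p-values measure the spread of time points only.

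Most of the 41 called members had a smaller fitted swing in DD than in LD. LD amplitude chose the members, so a smaller DD amplitude can follow from the choice alone, and the comparison has no test. Their fitted DD fold had a median of 3.28 (1.57 to 13.9), the DD amplitude was a median of 0.656 of the LD amplitude, and it was larger in DD in 6. This ratio had a median of 0.536 over all 91 members, 0.324 over the other body-only rhythms and 0.571 over the night rhythms of both tissues. Over all 91 members the DD amplitude had a median of 0.475 (0.02 to 1.90), against 0.123 over all probe sets tested, 0.251 over the other body-only rhythms and 0.603 over the night rhythms of both tissues. Averaged by hour of day in DD, 18 of the 41 were highest at CT16 and 12 at CT20, and 18 were lowest at CT4 and 13 at CT8.

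**Figure D2:**
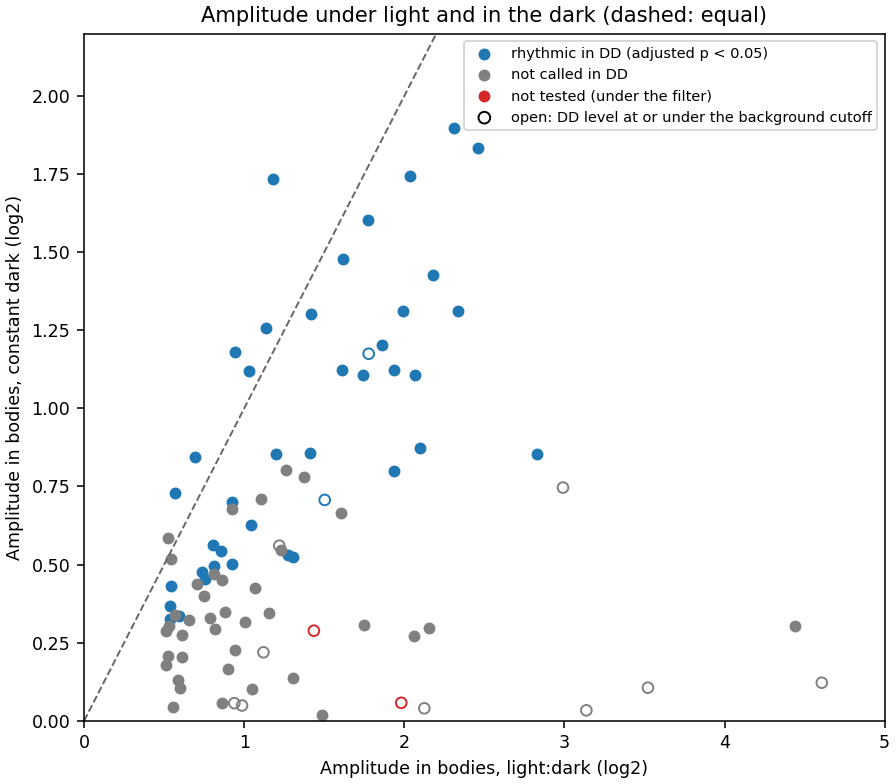
Fitted amplitude (log2) of each of the 91 probe sets in bodies in LD (horizontal) and DD (vertical), coloured by the DD rhythm call, with open circles where the DD mean lay at or under the background cutoff and a dashed line of equal amplitude. Of the 41 called probe sets 6 lie above the line, and several of the largest LD amplitudes sit at the bottom with DD means under the cutoff.

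Ag.3L.386.0_CDS_at had the clearest DD rhythm. In DD it measured 9.17 ± 0.20 (SD, n = 3 time points) at CT0, 8.88 ± 0.19 at CT4, 9.80 ± 0.10 at CT8, 11.42 ± 0.12 at CT12, 11.93 ± 0.45 at CT16 and 10.78 ± 0.56 at CT20 (n = 2 each). Dusk and night values all lay above those of dawn and day. The fitted amplitude was 1.60 ± 0.10 (SE) with a peak at CT15.1 (limma adjusted p = 1.16e-05), against an amplitude of 1.77 and a peak at ZT16.3 in LD. Ag.2L.2040.0_CDS_at followed with an amplitude of 1.30 ± 0.12 and a peak at CT14.4 (limma adjusted p = 0.000106), and its mean level was higher in DD (9.36) than in LD (6.48).

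Other members were rhythmic in LD and near background in DD. Ag.2L.295.0_CDS_at in LD measured 8.06 ± 0.05 (SD, n = 2 time points) at ZT16, 8.41 ± 0.49 at ZT20 and 2.64 ± 0.04 at ZT8, and in DD its means by hour of day all lay between 2.31 and 2.41. Its amplitude was 3.14 in LD and 0.03 in DD. Ag.2L.240.0_CDS_a_at went from 2.12 in LD to 0.04 in DD, at a DD mean of 2.96. Of the 13 members with a DD mean at or under the cutoff 2 were called, and the 13 include the 2 members that were not tested. A low mean thus did not always preclude a call, but values that stay near background do not show that the transcript lacked a rhythm. In bodies in DD, Ag.3R.29.0_CDS_at stayed between 2.32 and 2.74 at all 13 time points, and Ag.3R.20.0_CDS_at had an amplitude of 0.30 at a mean of 4.32 (limma adjusted p = 0.146).

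Of the 16 members with an LD amplitude of at least 2, 8 were called in DD and 5 lay at or under the cutoff in DD. Of the 35 with an LD amplitude of 1 to under 2, 33 were tested, 19 were called and 6 lay at or under the cutoff. Of the 40 with smaller amplitudes 14 were called and 2 lay at or under the cutoff. The mean level in bodies was at least 4-fold higher in LD than in DD in 30 of the 91 members and at least 4-fold lower in 3, while over the 7325 probe sets tested 395 were higher and 421 lower by as much. The median LD minus DD level was 0.49 over members (-3.25 to 7.89), 4.51 over the 16 with the largest amplitudes, and -0.11 over all probe sets tested. LD levels are those of the arm that chose the members, with its minimum level, so these differences have no test.

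The control probe sets also differed between the regimes. The 3′ minus 5′ difference of the glycolytic enzyme Gapdh, which grows as the 5′ end of the RNA is less represented, averaged 3.04 ± 0.46 (SD, n = 13 time points) in bodies in LD and 4.34 ± 0.58 in DD, and that of actin 2.09 ± 0.20 and 2.72 ± 0.36. Their part in the differences of level and amplitude was not tested.

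**Figure D3:**
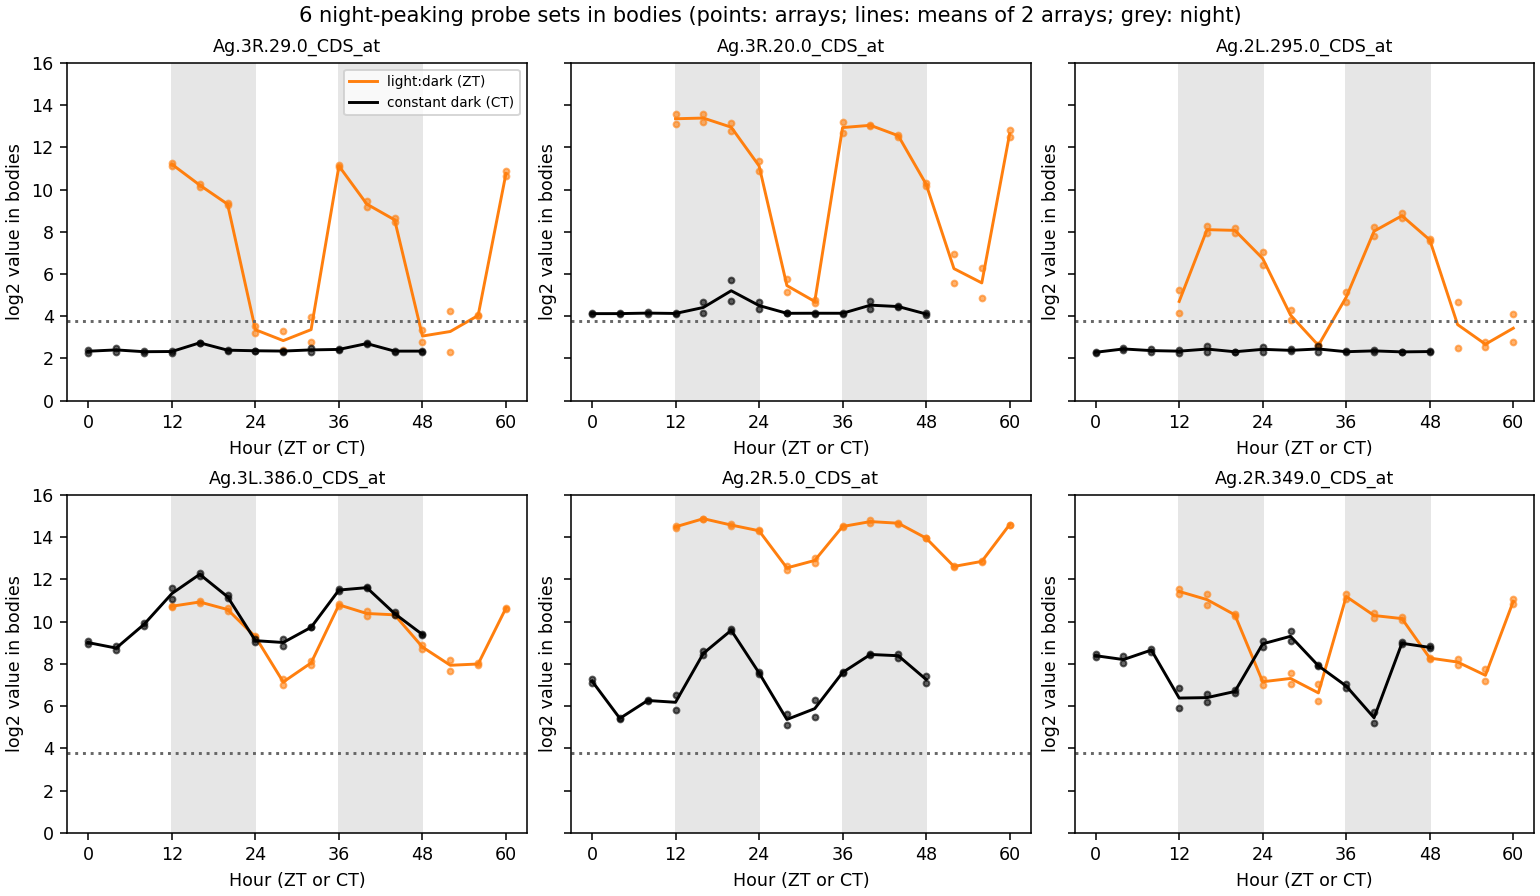
Log2 values in bodies of 6 probe sets at each hour in LD (orange) and DD (black), with points for arrays, lines for means of 2 arrays, grey for night or subjective night and a dotted line at the background cutoff of 3.78. Ag.3R.29.0_CDS_at, Ag.3R.20.0_CDS_at and Ag.2L.295.0_CDS_at are low and flat or nearly flat in DD, Ag.3L.386.0_CDS_at repeats its night rise, Ag.2R.5.0_CDS_at repeats it at a lower level, and Ag.2R.349.0_CDS_at is low at CT16, CT20 and CT40 but not at CT44.

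A few members had a larger amplitude in DD than in LD. Ag.2R.5.0_CDS_at measured 14.81 ± 0.10 (SD, n = 2 time points) at ZT16 and 12.58 ± 0.05 at ZT4 in LD, and 8.47 ± 0.04 at CT16, 8.99 ± 0.85 at CT20 and 5.39 ± 0.04 at CT4 in DD. Its night rise thus appeared in both regimes, at a mean of 13.98 in LD and 7.21 in DD. The amplitude was 1.18 in LD and 1.74 ± 0.21 (SE) in DD (limma adjusted p = 0.000379), although the LD values sit near the top of the array's range, whose highest value is 15.63. For Ag.3L.187.0_CDS_a_at the amplitudes were 0.57 in LD and 0.73 in DD (limma adjusted p = 0.0431), a call lost in 15 of 21 alternative settings.

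In most called members the fitted peak moved by no more than the 4 h sampling step. In 38 of the 41 called members the DD peak lay from CT12 to under CT24, as it did in 309 of all 490 probe sets called in bodies in DD. The DD peak lay within 2 h of the LD peak in 24 of the 41 and within 4 h in 37, and it was earlier in 21 and later in 20, with a median shift of -0.19 h. Among called members with an LD peak before ZT18 the median shift was 0.15 h, and among the later ones -1.12 h. Since LD chose the members by peak hour, the share that stayed within the night window is given as a description. Counts within 2 h and 4 h are not given for other probe sets, so they carry no comparison.

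**Figure D4:**
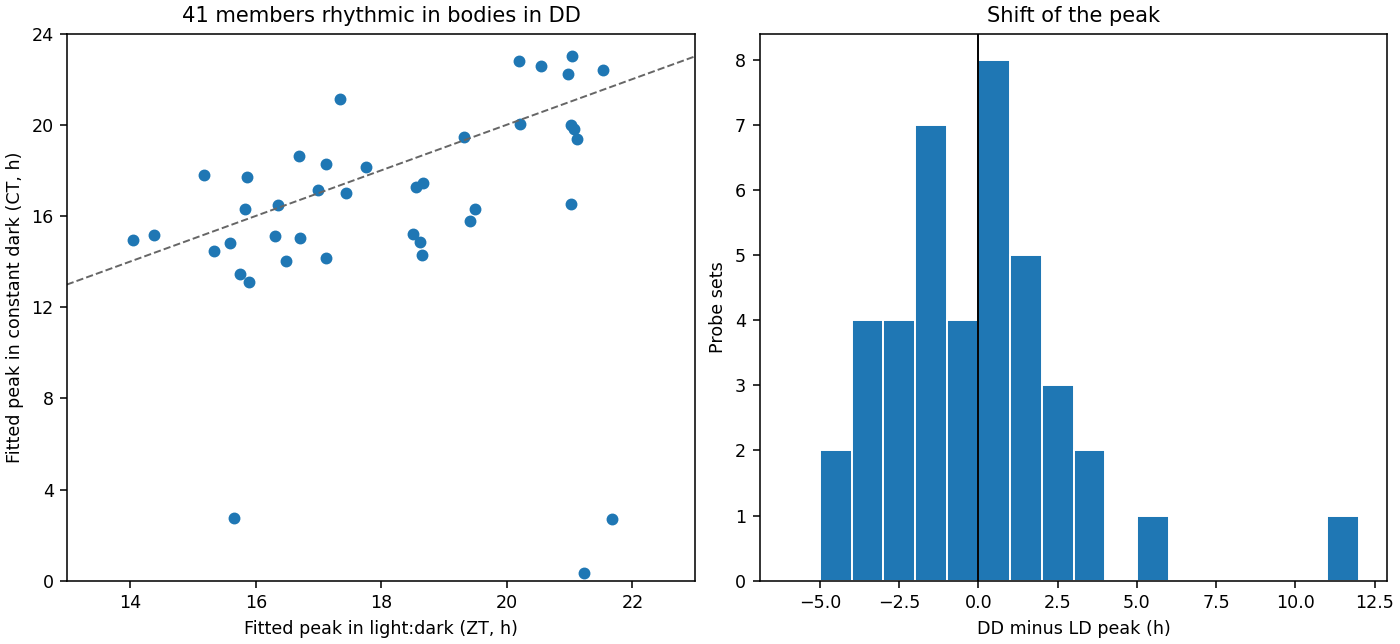
Left, fitted peak hour in bodies in LD and in DD of the 41 probe sets called rhythmic in DD, with a dashed line of equal hours. Right, the number of these probe sets by shift of the peak (DD minus LD, bins of 1 h): 37 lie within 4 h of 0 and the largest shift is 11.1 h.

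Ag.2R.349.0_CDS_at peaked at nearly opposite hours in the regimes. In LD it measured 11.20 ± 0.23 (SD, n = 3 time points) at ZT12, 10.67 ± 0.53 at ZT16, 10.24 ± 0.13 at ZT20 and 7.04 ± 0.59 at ZT8 (n = 2 each). In DD it measured 8.76 ± 0.78 at CT4, 8.28 ± 0.53 at CT8, 6.67 ± 0.40 at CT12 and 5.93 ± 0.67 at CT16 (n = 2 each), and at CT20 and CT44 it measured 6.69 and 8.98. It was thus high at dusk and night in LD, while in DD it was low at dusk and through the night except at CT44, its second highest value. The fits gave peaks at ZT15.7 and CT2.77 (limma adjusted p of the DD rhythm = 0.0105, a call lost without the filter on low values). The largest move to an earlier hour among the called members was from ZT21.0 to CT16.5 (limma adjusted p of the DD rhythm = 0.000857).

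Within DD the second cycle of the called members peaked earlier than the first. The fitted peak of the second cycle came before that of the first in 37 of the 41, with a median difference of -1.26 h (-3.68 to 0.81). In the same 41 in LD it did in 25, with a median of -0.30 h. Over all 490 probe sets called in bodies in DD it did in 343 in DD (median -0.95 h) and in 285 in LD (median -0.29 h). Each cycle was fitted on few time points and the 24 h period was imposed, so these hours carry no test. The second-cycle amplitude was a median of 0.949 of the first in DD in the called members and 0.898 in all 490.

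A separate contrast gave the direction of the change in DD. Subjective night (CT16, CT20, CT40 and CT44) was compared with subjective day (CT4, CT8, CT28 and CT32) in limma, with adjustment over the same 7325 probe sets. Of the 89 members tested 23 were higher at night at an adjusted p under 0.05, against 1.52% of all probe sets tested. Lower at night were 0 of 89 (3 at an unadjusted p under 0.05, and 3 when arrays were the units), against 0.683% of all. Of the other body-only rhythms 2 of 171 were higher and 10 lower, and of the night rhythms of both tissues 9 of 34 were higher and 0 lower. In 34 of the 89 members all 4 night values lay above all 4 day values, against 5.58% of all probe sets, and in 0 all lay below, against 3.74%.

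Without regard to the test, 76 of the 89 members were higher at night and 13 lower, with a median difference of 0.55 on the log2 scale (-1.64 to 3.24), against 0.01 over all probe sets tested, -0.11 over the other body-only rhythms and 0.70 over the night rhythms of both tissues. Members with an LD peak before ZT18 had a median of 0.94 and those with a later peak 0.46. The called Ag.2R.5.0_CDS_at averaged 8.73 in subjective night and 5.73 in subjective day, a difference of 3.0 ± 0.34 (SE, limma adjusted p = 0.00146). Ag.2R.349.0_CDS_at averaged 6.88 and 8.52, a difference of -1.64 ± 0.59 that did not pass (limma adjusted p = 0.193). The count of 23 rested on single time points, since it was 12 without CT40 and 15 without CT8.

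In bodies in DD the RNA controls moved with the same hours. The Gapdh 3′ minus 5′ difference was 4.54 ± 0.26 (SD, n = 4 time points) in subjective night and 3.77 ± 0.43 in subjective day, and that of actin 2.81 ± 0.11 and 2.47 ± 0.26. In bodies in LD the Gapdh values were 2.90 ± 0.25 at night and 3.22 ± 0.57 by day, and those of actin 2.07 ± 0.12 and 2.15 ± 0.32. The Gapdh day values, from 2.47 at ZT28 to 3.86 at ZT52, overlapped the night values, from 2.61 at ZT20 to 3.13 at ZT16. Their part in the members' night and day difference was not tested.

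In heads most of these transcripts were near background. Of the 91 members 59 fell under the heads cutoff of 3.75, and 32 were kept for tests in heads. In heads in LD, 58 were not strong because their mean was under 4, another 25 because their amplitude was under 0.5, and 8 because R2 was under 0.7. In all, 15 members missed 1 of the 3 limits: 8 of them R2 (0.60 to 0.69), 6 the amplitude and 1 the mean. In 11 of the 15 the fitted head peak lay within 2 h of the body peak (7, 3 and 1 in the same order), so the label body-only holds for these by the rule alone. Heads in LD were part of the rule, and these are descriptions. Kept in heads were 24 of the 51 members with later LD peaks and 8 of the 40 with earlier ones, a difference that was not tested.

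At the first collection of heads in LD, ZT12, several body transcripts stood out. Of the 59 members under the heads cutoff, 12 lay more than 0.5 above their own median over the heads LD arm, and on the separate arrays 12 and 13 did. At ZT36 5 did so, and at ZT60 3, the other time points of the same hour of day. Ag.2L.2856.0_at measured 7.95 there and stayed near 3 at the other time points, a deviation of 5.05. In all 1250 probe sets kept in bodies and not in heads the count was 109 at ZT12 and from 10 to 47 at the other hours. The rise at ZT12 was thus shared with many non-members, but its share of the 1250 was smaller than its share of the 59. In heads in DD at most 2 of the 59 lay more than 0.5 above their arm median at any time point. Leaving out heads LD ZT12 changed the number of members from 91 to 90.

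In heads in constant dark, rhythms were called among the members at about the share of all probe sets tested. The limma F-test called 3 of the 32 tested members (9 at an unadjusted p under 0.05), against 8.92% of all 7188 probe sets tested in heads, a share of the same size. The count was 2 to 5 with 1 time point left out (5 without CT4), and 7 with arrays as units against 23% of all. None of the 91 met the strong rule in heads in DD (0 of 91, against 1.16% of all Anopheles probe sets). However, 61 of the 91 had a heads DD mean at or under the heads cutoff, so they could not meet its level limit of 4. Of the 3 called members, 2 were also called in bodies in DD. At CT44 in heads in DD the Gapdh 3′ minus 5′ difference was 7.54, against an arm mean of 4.40, and without that time point the count was again 3. Ag.2L.661.0_CDS_a_at in heads in DD ranged from 6.88 at CT12 to 8.18 at CT20, with 8.11 at CT44. Its fitted amplitude was 0.49 ± 0.08 (SE) in heads (limma adjusted p = 0.00452) and 0.50 ± 0.06 in bodies (limma adjusted p = 0.000708), with peaks at CT22.0 and CT22.8. Ag.2L.457.0_CDS_a_at had amplitudes of 0.48 ± 0.10 in heads (limma adjusted p = 0.0132) and 0.63 ± 0.11 in bodies (limma adjusted p = 0.0059), both calls lost without replicate 2. The test of the difference between the tissues did not pass for either (limma adjusted p = 0.855 and 0.295).

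The rhythm itself was compared between the tissues in DD, as a 24 h curve through the head minus body differences of each time point. In limma 4 of the 32 members kept in both tissues differed at an adjusted p under 0.05, against 3.33% of the 6075 probe sets kept in both, and all 4 had the larger amplitude in bodies. Of the other body-only rhythms kept in both 9 of 84 differed, and of the night rhythms of both tissues 10 of 34. Being kept in heads did not place all 4 members above the cutoff in DD. Their heads DD means were 3.24, 3.84, 5.11 and 6.14, against the heads cutoff of 3.75. The tissue difference of Ag.3L.187.0_CDS_a_at, with the mean of 3.84, was a call lost in 13 of 21 alternative settings. Over all 89 members tested the count was 29, against 4.08% of the 8438 probe sets above the cutoff in either tissue. However, 25 of the 29 were under the cutoff in heads and passed the filter through bodies, so their larger body amplitude was set by the filter, and the 29 are given as a description. That count was 17 without the filter on low values, 49 with arrays as units and 50 with a replicate block. Ag.3L.386.0_CDS_at had amplitudes of 1.60 in bodies and 0.01 in heads, at a heads mean of 2.08, under the cutoff. Ag.2L.79.0_CDS_at had 1.17 in bodies and 0.07 in heads, also under the cutoff in heads, and its mean over bodies in DD was itself under the cutoff, at 3.06, with subjective night at 4.09 and day at 2.21.

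Levels in DD were higher in bodies for most members. Of the 32 kept in both tissues 29 were higher in bodies and 3 in heads at an adjusted p under 0.05 (limma), against 64.3% and 26.2% of the 6075 probe sets kept in both. Over all 89 tested 83 were higher in bodies and 5 in heads, against 60.5% and 32% of all 8438 probe sets tested. At least 16-fold higher in bodies were 34, against 5.19%, and 6 of these 34 were kept in heads. With heads values taken as measured, the median head minus body difference was -2.91 on the log2 scale, with -0.52 over all probe sets tested and -2.35 over the other body-only rhythms. The rule asked for a body level in LD and could be met by a low head level, so this direction was partly built in. Both DD means were at or under the cutoffs in 8 of the 83 and in 2 of the 5, and those differences are between background values.

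**Figure D5:**
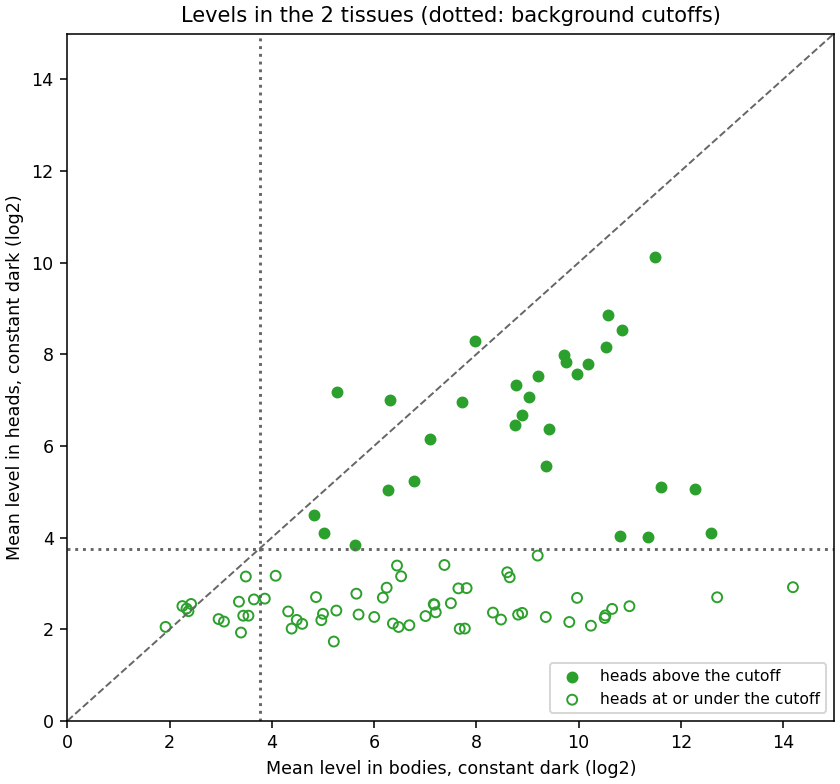
Mean log2 level over the 13 DD time points of each of the 91 probe sets in bodies (horizontal) and heads (vertical), with dotted lines at the background cutoffs, a dashed line of equal levels, and open circles for the 61 with a DD heads mean at or under the cutoff. Nearly all points lie below the line of equal levels.

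Ag.2L.2856.0_at had DD means of 14.19 in bodies and 2.92 in heads, under the heads cutoff. Counted from that cutoff, its body level was at least 10.45 higher on the log2 scale. Its 13 head values in DD lay between 2.84 and 2.98. Ag.3R.2182.0_CDS_s_at had means of 12.71 and 2.70, also under the heads cutoff, and was at least 8.97 higher in bodies. The pair passed the filter through bodies alone, so the direction of these level differences was set by the filter and they are given as a description. Both also had body rhythms in DD, with amplitudes of 0.56 and 0.50 (limma adjusted p = 0.000802 and 0.0176), the latter call lost in 4 of 21 alternative settings. In the other direction Ag.2L.468.0_CDS_a_at had means of 5.28 in bodies and 7.17 in heads, a difference of 1.87 ± 0.10 (limma adjusted p = 6.96e-11), and no DD rhythm was called for it in either tissue. Ag.2L.457.0_CDS_a_at, rhythmic in both, was higher in heads by 0.71 ± 0.08 (limma adjusted p = 7.27e-07).

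The names of the probe sets place the members on all chromosome arms. By name 19 were on 2L, 24 on 2R, 15 on 3L, 23 on 3R and 7 on X, and 3 had no arm, while the 7325 probe sets tested numbered 1644, 2168, 1110, 1509, 551 and 343 in the same order. The 91 carried 87 distinct cluster numbers, and 4 clusters had 2 members each, which may measure the same transcript. Their fitted peaks lay within 1.18 h of each other in LD and within 0.79 h in DD. A further 6 probe sets shared a cluster with a member and were tested but were no members, and 5 of these had their LD peak inside the same night window. By suffix 12 members ended in s_at, a kind that can share probes with other transcripts, so their values may combine several transcripts. A further 34 ended in a_at, and whether each of these measures a single transcript was not checked.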

How the data were processed

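RNA of heads and bodies was measured on Affymetrix arrays in 104 samples, grouped by tissue, regime and hour as the labels give them. Each array column of the deposited table gives log2 values that the authors made with GCRMA (probe-sequence background correction, normalization between arrays and summary of probes), per the submitters' processing notes. No version of it, and no list of arrays processed jointly, is given in the sources used here. GCRMA pulls low values to a floor, so rhythms near background are flattened and folds against such troughs depend on it. The number of arrays limits the precision.

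The table holds 22761 probe sets, 16884 of Anopheles and 4502 of Plasmodium falciparum by name. The 2 arrays of a time point were averaged. Anopheles probe sets were kept where the tissue mean exceeded 95% of the P. falciparum means (3.78 in bodies, 7325 kept; 3.75 in heads, 7188 kept; 8438 in either). The 24 h cosinor, the night and day contrast and the head minus body fits were run in limma 3.58.1 under R 4.3.3 (lmFit and eBayes) on all kept probe sets with Benjamini-Hochberg adjustment at 0.05. The fits were tested on simulated data. Alternatives were arrays as units, a replicate block, each replicate or time point left out, quantile normalization, other filters, ranks and other limits of the rule. Restricting the tissue comparison to members kept in heads, and the membership without heads ZT12, were chosen after seeing the data.

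Members and lists were chosen with earlier results of these data known. The reference lists 15165 genes, and 0 probe set names matched it, so gene lists, cell type markers and sequences were not used. IDs are the first 2 by LD amplitude, by DD rhythm p, by smallest DD amplitude among the 20 largest LD amplitudes and by heads DD amplitude among called. IDs named for DD amplitude above LD, shifts of the peak, tissue differences and levels were chosen after their values were seen.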

Additional observations from a re-analysis of the deposited data

Results flagged for a closer look

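The same contrast, the 24 h curve in constant dark, differed between heads and bodies in 4 of the 32 members kept in both tissues (limma on head minus body differences, adjusted p under 0.05), against 3.33% of all probe sets kept in both. The heads DD means of these 4 members were 3.24, 3.84, 5.11 and 6.14, against the heads cutoff of 3.75. For Ag.3L.187.0_CDS_a_at, with the mean of 3.84, the call was lost in 13 of 21 alternative settings. A further 25 members differed but were under the heads cutoff, where a smaller head amplitude was set by the filter.

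A signal appeared in data that no test here used. In heads in LD, 12 of the 59 members under the heads cutoff lay over 0.5 on the log2 scale above their own arm median at ZT12, by the mean of 2 arrays. On the separate arrays 12 and 13 did. At the other time points 0 to 7 did by the mean, and in heads in DD 0 to 2. At ZT12 109 of all 1250 probe sets kept in bodies and not in heads did so, a smaller share than the 12 of 59. The rise was thus more frequent among members but shared with many non-members. The 12 members had a median level of 7.64 in bodies at ZT12 (5.10 to 12.95), and the other 47 had 8.94 (2.53 to 14.71). No cause was tested.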

How the results depend on the processing

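No result reversed under the alternatives run, and counts of calls moved most. With arrays as units in place of time points, the counts at an adjusted p under 0.05 were 65 in place of 41 members rhythmic in bodies in DD, 46 in place of 23 higher and 3 in place of 0 lower at night, 7 in place of 3 rhythmic in heads in DD and 49 in place of 29 with a different rhythm in the tissues. With a replicate block they were 65, 45, 3, 7 and 50. Whether the labels' replicate numbers pair the samples was not settled. Same-numbered deviations correlated from -0.23 to 0.39 (median 0.05) over 78 pairs of time points in bodies in DD. In heads in DD they correlated from -0.13 to 0.41 (median 0.085). Ranks in place of values gave 0 calls in limma for these 5 counts and for all probe sets, with 60, 40, 9 and 51 members at an unadjusted p under 0.05 for body rhythm, higher at night, head rhythm and tissue difference. No level test was run on ranks. Without a filter on low values 28 of the 91 members were rhythmic in bodies in DD, against 1.82% of all 16884 probe sets. In that setting 12 were higher at night and 17 differed in rhythm between tissues. Separately, with the filter kept and only the 32 members kept in heads counted, 4 differed in rhythm, 29 were higher in level in bodies and 3 in heads.

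Leaving out 1 time point gave 32 to 39 rhythmic in bodies in DD, 12 to 25 higher at night (15 without CT8, 12 without CT40), 0 to 2 lower (2 without CT44), 2 to 5 rhythmic in heads (5 without CT4), 24 to 29 different in rhythm, and 4 to 5 higher in heads. Without replicate 1 or 2 the counts were 30 and 32, 14 and 17, 0 and 0, 2 and 2, 20 and 24, and 5 and 3. Higher levels in heads were called for 3 in place of 5 members under quantile normalization and with the filter on the DD mean. Levels higher in bodies were called for 75 to 83 under the other alternatives. Quantile normalization gave a median DD amplitude of 0.431 in place of 0.475, and an R2 limit of 0.8 gave 59 members in place of 91, of which 56 were shared. The causes were not tested. Signal over background limits what heads and the 13 members at or under the cutoff in bodies in DD can show.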
